A study of Mus musculus with 12 samples.

Results

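The small structural RNAs of the mouse that are described here are the 7SL RNA genes Rn7s1 and Rn7s2, the 7SK RNA gene Rn7sk, the Y RNA genes Rny1 and Rny3, and the spliceosomal RNA genes Rnu6, Rnu1a1, Rnu2-10, Rnu11 and Rnu12. They are 10 of the 30702 genes with a symbol of their own on the array. Rn7s1 and Rn7s2 hold the same value on every array, so the 10 genes give 9 distinct profiles. Each gene was taken by its symbol in the platform annotation and, where a symbol had several transcript clusters, by the cluster with the highest mean over all arrays. The genes were picked with their differences between mice with and without leukaemia known. Those differences are therefore given as a description, with the SE of the fit and with no test.

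All mice were Rag2-/-γc-/- on a BALB/c background, a genotype that removes T, B and natural killer cells and that the mice without leukaemia shared. The 4 groups of 3 mice were mice 21 days after intravenous MEC1 cells, mice without MEC1 at 21 days (both aged 11 weeks), mice 31 days after MEC1 cells, and mice without MEC1 at 31 days (both aged 13 weeks). MEC1 is a human cell line established from chronic lymphocytic leukaemia, a cancer of B cells, so that the leukaemia is of another species than its host. Total RNA of bone marrow monocytes and macrophages, purified on magnets, was hybridised to 12 Clariom D mouse arrays, 1 per mouse, and all values are log2 intensities normalised by the authors. A log2 difference of 1 is a doubling of intensity. Intensities of different probes were not set against each other.

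These RNAs work without being translated. The 7SL RNA is the scaffold of the signal recognition particle, which directs ribosomes making secreted and membrane proteins to the endoplasmic reticulum. The 7SK RNA holds the elongation kinase P-TEFb in an inactive pool. Y RNAs are bound by the Ro60 protein, and La, the product of Ssb, binds the ends of new RNA polymerase III transcripts. U1, U2 and U6 belong to the major spliceosome, while U11 and U12 recognise the rare minor class of introns. RNA polymerase III makes the 7SL, 7SK, Y and U6 RNAs, and RNA polymerase II makes the others. Most of them have many near-identical copies in the genome, between which array probes cannot tell.

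The 7SL, Y, U6, U1, U2 and U11 RNAs were higher with MEC1 at both times, with differences of 1.62 to 5.72 at 21 days and 1.32 to 5.10 at 31 days. The 7SK RNA was lower, at -0.15 and -0.21, close to the highest intensity the arrays gave, and the U12 RNA had a difference of 0.22 at 21 days and -0.82 at 31 days. Of the 9 profiles, 7 lay higher in every MEC1 mouse than in every mouse without MEC1 at 21 days and 1 lay lower. At 31 days 6 lay higher and 2 lower. Over all 37240 clusters tested, those above their array's median on at least 3 arrays, groups without overlap made up 14.9% higher and 13.7% lower at 21 days. At 31 days they made up 31.2% higher and 28.4% lower, and since the genes were picked on these contrasts nothing is read from the comparison. All 10 genes lay above the array's median on all 12 arrays, so none was kept for testing by 1 group alone.

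**Figure D1:**
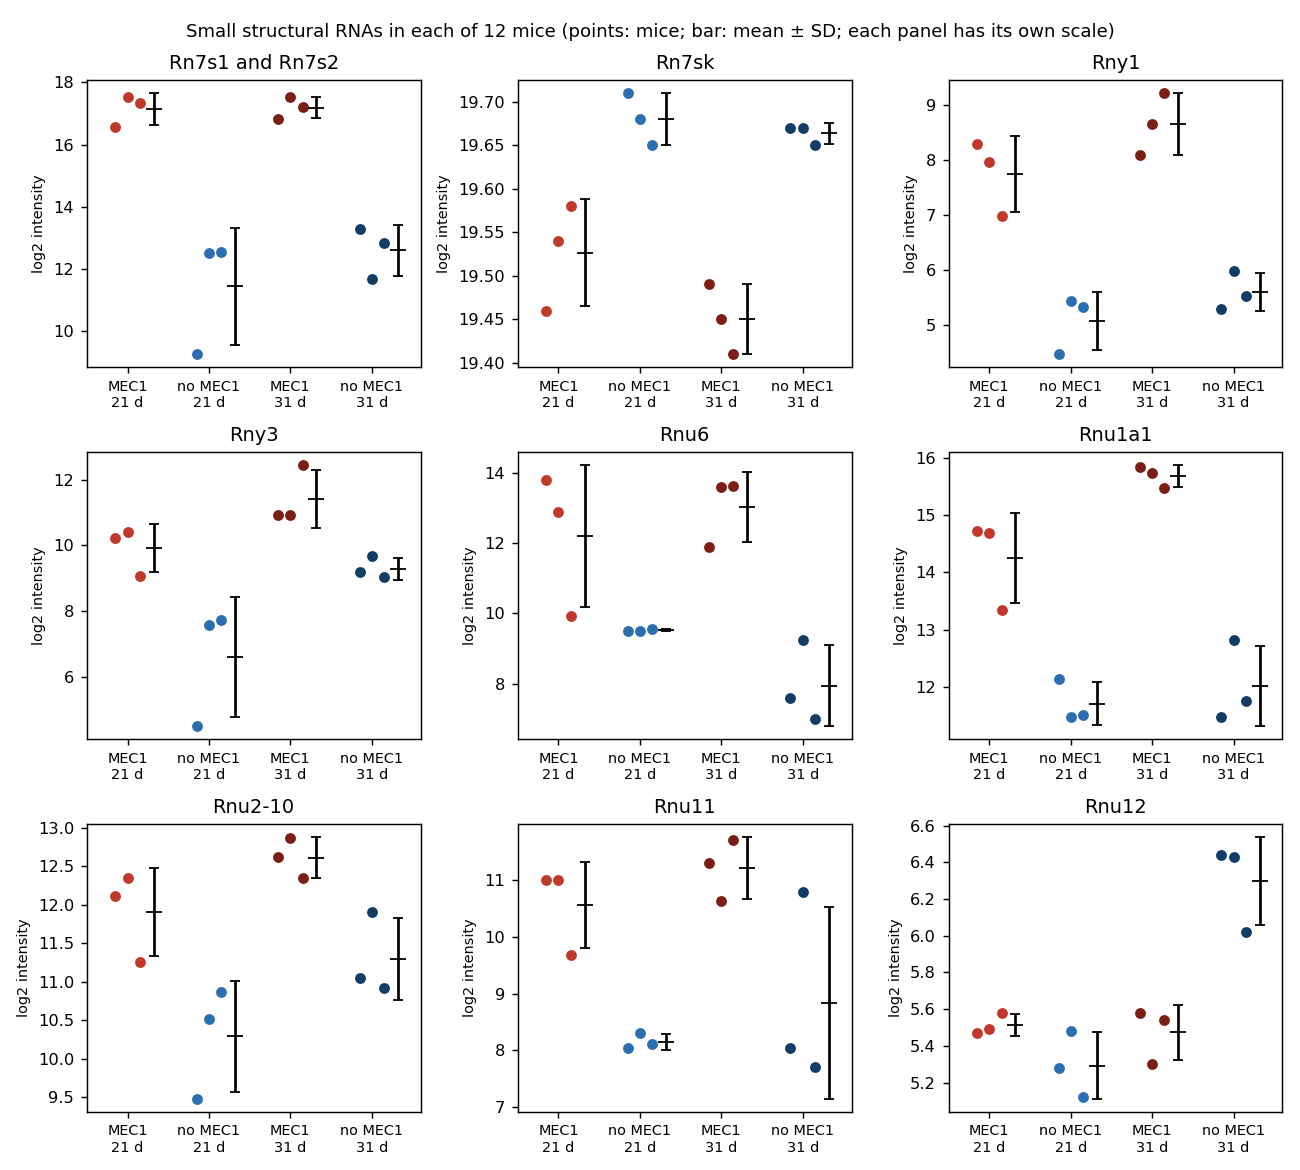
Log2 intensity (vertical axis, a separate scale in each panel) of the 9 distinct profiles in every mouse, by group, with the group mean and SD as a bar (n = 3). The 7SL panel shows all MEC1 mice between 16.55 and 17.54 and all mice without MEC1 between 9.24 and 13.28, while the 7SK panel spans only 19.41 to 19.71.

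The 7SL RNA had the largest difference of the 9 profiles at 21 days. Rn7s1 and Rn7s2 read 16.55, 17.54 and 17.34 in MEC1 mice at 21 days, against 9.24, 12.49 and 12.55 in mice without MEC1. The MEC1 mice lay within 1 unit of each other, while mouse 1 without MEC1 lay more than 3 units below the other two. The difference was 5.72 (SE 0.76), or 52.6-fold, and 4.62 without that mouse. At 31 days the values were 16.83, 17.52 and 17.22 with MEC1 and 13.28, 11.68 and 12.82 without. The groups were again far apart, by 4.60 (SE 0.76), or 24.2-fold. The MEC1 mice had close levels at both days, 17.19 ± 0.35 at 31 days and 17.14 ± 0.52 at 21 days (SD, n = 3 each).

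The 7SK RNA moved little, and at a level where the arrays have little room. Rn7sk read 19.46, 19.54 and 19.58 with MEC1 at 21 days and 19.71, 19.68 and 19.65 without. At 31 days it read 19.49, 19.45 and 19.41 with MEC1 and 19.67, 19.67 and 19.65 without. Every MEC1 mouse lay below every mouse without MEC1, with differences of -0.15 (SE 0.11) at 21 days and -0.21 (SE 0.11) at 31 days. On the 6 MEC1 arrays Rn7sk stood at, or within 0.01 of, the highest intensity of the array, which was 19.41 to 19.58, with 53 to 78 clusters within 0.05 of it. On the 6 arrays without MEC1 the highest intensity was 19.88 to 19.93, and Rn7sk stood 0.20 to 0.28 below it with 2 to 4 clusters within 0.05 of the top. A change in 7SK RNA above this ceiling would not be visible, so its small difference says nothing on whether 7SK differs from the other RNAs.

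The Y RNA genes Rny1 and Rny3 were both higher with MEC1. Rny1 read 8.30, 7.97 and 6.98 with MEC1 at 21 days and 4.47, 5.43 and 5.32 without, a difference of 2.68 (SE 0.40). At 31 days it read 8.09, 8.66 and 9.22 with MEC1 and 5.29, 5.98 and 5.53 without, a difference of 3.06 (SE 0.40). The groups did not overlap at either day, and among the 9 profiles Rny1 lay nearest to their mean course over the 12 arrays. Rny3 read 10.24, 10.42 and 9.08 with MEC1 at 21 days and 4.51, 7.59 and 7.75 without, a difference of 3.30 (SE 0.77). Mouse 1 without MEC1 was about 3 units below its group, and the difference was 2.24 without it. At 31 days Rny3 read 10.91, 10.92 and 12.44 with MEC1 and 9.18, 9.67 and 9.03 without, a difference of 2.13 (SE 0.77). The mice without MEC1 at 31 days were well above those at 21 days for Rny3, but not for Rny1, whose groups without MEC1 overlapped. In the RefSeq table both Y RNA genes lie on 1 chromosome with 1 annotated gene, the pseudogene Rpl31-ps7, between them.

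Among the RNAs of the major spliceosome, U6 had the largest difference at 31 days, and its mice were widely spread in all groups but the 21-day mice without MEC1. U6 pairs with the 5' splice site and forms the catalytic centre. Rnu6 read 13.79, 12.90 and 9.92 with MEC1 at 21 days and 9.49, 9.51 and 9.56 without. Mouse 3 with MEC1 lay just above the 3 tightly grouped mice without MEC1, and the other two lay far above. The difference was 2.68 (SE 0.90), 3.83 without that mouse. At 31 days Rnu6 read 11.89, 13.59 and 13.63 with MEC1 and 7.59, 9.23 and 6.99 without, with no overlap. The difference was 5.10 (SE 0.90), or 34.3-fold.

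U1 recognises the 5' splice site first, and U2 the branch point. Rnu1a1 read 14.72, 14.69 and 13.35 with MEC1 at 21 days and 12.14, 11.47 and 11.51 without, a difference of 2.55 (SE 0.41). At 31 days it read 15.84, 15.74 and 15.47 with MEC1 and 11.47, 12.81 and 11.76 without, a difference of 3.67 (SE 0.41). All MEC1 mice lay above all mice without MEC1, and the 31-day MEC1 mice were the most alike. Rnu2-10 read 12.11, 12.35 and 11.26 with MEC1 at 21 days and 9.48, 10.52 and 10.87 without, a difference of 1.62 (SE 0.40). At 31 days it read 12.62, 12.87 and 12.34 with MEC1 and 11.05, 11.91 and 10.92 without, a difference of 1.32 (SE 0.40). This was the smallest difference among the profiles that were higher at both days, and the gap between the nearest mice was under 1 unit.

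The paired RNAs of the minor spliceosome differed from each other. U11 recognises the 5' splice site of minor introns and U12 their branch point. Rnu11 read 11.00, 11.01 and 9.68 with MEC1 at 21 days and 8.03, 8.30 and 8.11 without, a difference of 2.42 (SE 0.69). At 31 days it read 11.31, 10.63 and 11.71 with MEC1 and 8.03, 10.79 and 7.70 without, a difference of 2.38 (SE 0.69). Mouse 2 without MEC1 reached into the MEC1 range at 31 days, and the difference was 3.35 without it. Rnu12 read 5.47, 5.49 and 5.58 with MEC1 at 21 days and 5.28, 5.48 and 5.12 without, overlapping groups with a difference of 0.22 (SE 0.16). At 31 days it read 5.58, 5.30 and 5.54 with MEC1 and 6.44, 6.43 and 6.02 without, a difference of -0.82 (SE 0.16). The MEC1 mice kept a level of 5.47 ± 0.15 at 31 days and 5.51 ± 0.06 at 21 days. The mice without MEC1 averaged 6.30 ± 0.24 and 5.29 ± 0.18 at these days (SD, n = 3 each).

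Beside the differences stand those of other clusters at the same intensity, as a description from which nothing is read, since the genes were picked on these contrasts. Clusters within 0.5 of a gene's own level in the mice without MEC1 had median differences of -0.45 to -0.01 at 21 days and -1.07 to -0.18 at 31 days. For 7SL, 789 clusters at its level had a median difference of -0.34 at 21 days, and 479 had -1.02 at 31 days. For 7SK the same medians were -0.06 and -0.18, beside its own -0.15 and -0.21. For U12 the median at 31 days was -0.41, beside its own -0.82. Over the 9 profiles the median difference was 2.55 at 21 days and 2.38 at 31 days, while over all tested clusters it was 0.02 and 0.04.

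**Figure D2:**
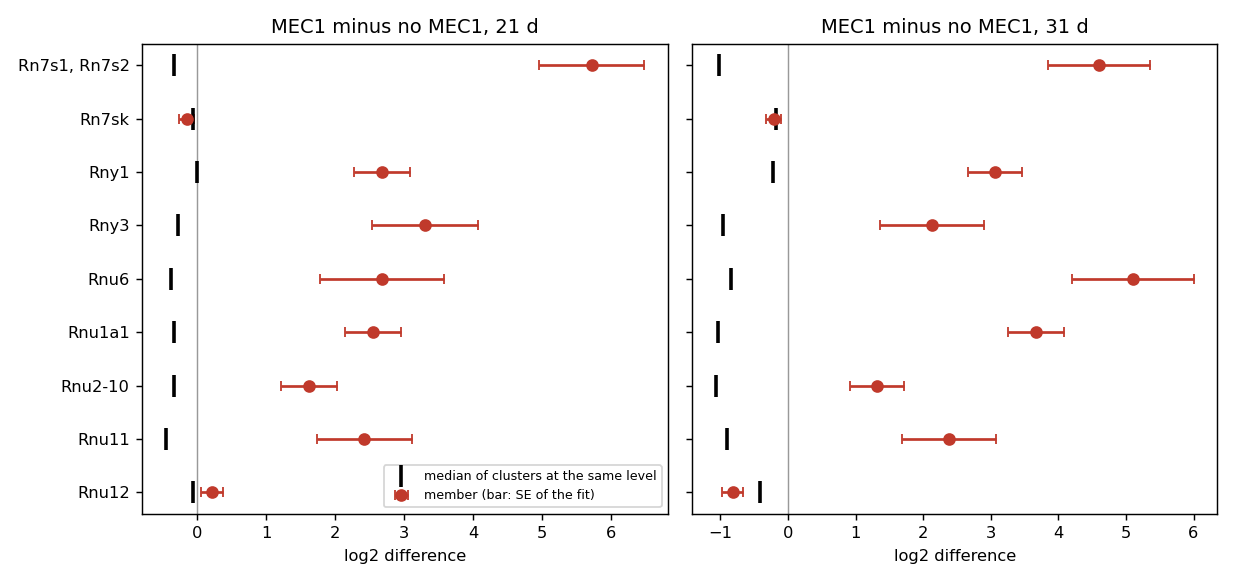
Log2 difference, MEC1 minus no MEC1, of the 9 profiles at 21 days (left) and 31 days (right), with the SE of the fit as a bar, and as a black tick the median difference of clusters with the same intensity in mice without MEC1. 7SL lies at 5.72 and 4.60 with ticks at -0.34 and -1.02, and 7SK lies on its ticks.

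Between the days 7 of the 9 profiles had a higher mean at 31 days in MEC1 mice, and 7 of 9 in mice without MEC1. Their median changes were 0.70 and 0.69, beside 0.01 and -0.02 over all tested clusters. The share of clusters with a higher mean is not given, so nothing is read from these counts. In MEC1 mice, 2 profiles were higher at 31 days than at 21 days without overlap, Rny3 by 1.51 and Rnu1a1 by 1.43, and none was lower. Over all tested clusters 8.27% were higher and 9.47% lower in this way. In mice without MEC1, Rny3 was higher at 31 days by 2.68 (SE 0.77), Rnu2-10 by 1.00 (SE 0.40) and Rnu12 by 1.00 (SE 0.16), and Rnu6 was lower, at -1.58 (SE 0.90), against 6.22% of clusters higher and 8.09% lower. The 31-day difference minus the 21-day difference was 2.42 (SE 1.27) for Rnu6, -1.17 (SE 1.09) for Rny3, -1.12 (SE 1.08) for 7SL and -1.04 (SE 0.23) for Rnu12. Over all tested clusters limma called this change for 1 of 37240, or 0.00269%.

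Single mice were the lowest or highest of their group for several of these RNAs at once. At 21 days, mouse 3 with MEC1 was the lowest of its group for 6 of 9 profiles. Its erythroid anion exchanger Slc4a1 read 12.06, against 7.92 and 9.14 in the MEC1 mice 1 and 2, and 12.75 to 14.53 in the mice without MEC1. Mouse 1 without MEC1 at 21 days was also the lowest of its group for 6 profiles. At 31 days mouse 2 without MEC1 was the highest of its group for 6 profiles and mouse 3 the lowest for 6. The same counts over all tested clusters are not given, so nothing particular to these RNAs is read from them. Averaged over the profiles after centring each on its own mean, the MEC1 mice lay between 0.17 and 1.19 at 21 days and between 1.26 and 1.75 at 31 days. The mice without MEC1 lay between -2.09 and -1.19 at 21 days and between -1.20 and -0.34 at 31 days.

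For 6 of the 10 genes the array held another cluster of the same symbol. That of Rny3 held identical values, and those of Rn7sk and Rnu1a1 differed from the chosen cluster by up to 0.08 and 0.24. The other cluster of Rny1 had differences of 2.21 (SE 0.31) at 21 days and 2.81 (SE 0.31) at 31 days, close to those of the chosen one. The other Rnu6 cluster had 2.59 (SE 0.57) and 4.36 (SE 0.57), and its SD at 21 days was 1.09 with MEC1 and 0.42 without, where the chosen cluster had 2.03 and 0.04. The other Rnu2-10 cluster had 1.61 (SE 0.48) and 1.39 (SE 0.48), but its groups overlapped at 21 days. Clusters of 1 symbol may share probes or targets and are not counted as independent measurements.

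Among 13794 tested genes with a symbol that are neither in the set nor predicted genes, 5 followed its mean course most closely over the 12 arrays. Likeness was the root mean square difference in log2, after centring each gene on its own mean. The closest were the 5S ribosomal RNA genes n-R5s71 (0.47) and n-R5s2 (0.50), the microRNA gene Mir421 (0.47), and the U1 genes Rnu1b1 and Rnu1b2 (0.48 each, with identical values), against a median of 1.41 over the candidates. Mir421 averaged 5.10 with MEC1 and 3.23 without at 21 days, and 6.17 with MEC1 and 3.49 without at 31 days. In the mice without MEC1 the array median averaged 3.86 at 21 days and 3.81 at 31 days. Mir421 and n-R5s71 averaged below it there, so they could be candidates through MEC1 arrays alone. Rnu1b1 averaged 11.04 ± 0.69 with MEC1 and 9.36 ± 0.27 without at 21 days, and 12.12 ± 0.37 with MEC1 and 9.40 ± 0.32 without at 31 days (SD, n = 3 each). Of the 9 profiles themselves, Rny1 (0.33), Rnu2-10 (0.51), Rnu11 (0.58) and Rnu1a1 (0.65) lay closest to the course, and 7SL (1.67) was farthest. The course is that of genes picked for their differences with MEC1, so a gene with a like rise lies near it. Rnu1b1 and Rnu1b2 are U1 genes like Rnu1a1, which is part of the course. Likeness is therefore a description from which nothing is read.

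Of the other small structural RNAs on the array, copies of the 5S ribosomal RNA were mostly higher with MEC1 at 31 days, while the remaining kinds were mixed. Of 85 genes 79 were tested, 64 of them 5S genes, with 45 distinct profiles. Of these, 36 profiles rose at 31 days by limma at an adjusted p under 0.05 and 1 fell, against 21.5% of all named genes higher and 29.0% lower. Of 33 profiles of 5S genes 31 rose. Of the 12 others 5 rose, those of the U1 genes Rnu1b1 and Rnu1b6, the U3 genes Rnu3b1 and Rnu3b4 and the U6 pseudogene Rnu6-ps2. Another 6 did not pass, with differences of -0.93 for Rpph1, -0.49 for Bc1, -0.30 for Terc, 0.34 for Rmrp, 0.63 for Rnu3a and 0.92 for Rnu5g. These singled-out genes were named after their values were seen. The 5S ribosomal RNA gene n-R5s25 averaged 8.87 ± 0.62 with MEC1 and 5.81 ± 0.45 without at 31 days, a difference of 3.07 (SE 0.45, adjusted p = 0.000909). The U1 gene Rnu1b6 averaged 12.16 ± 0.37 and 9.22 ± 0.35, a difference of 2.93 (SE 0.35, adjusted p = 0.000479). The 5S gene n-R5s2 averaged 7.03 ± 0.33 and 4.14 ± 0.30, a difference of 2.89 (SE 0.35, adjusted p = 0.000503). In all of these the MEC1 mice lay above the mice without MEC1. The profile that fell was Rn4.5s, the 4.5S RNA of rodents, which read 9.19, 8.80 and 7.21 with MEC1 and 12.16, 14.16 and 13.43 without, a difference of -4.85 (SE 0.88, adjusted p = 0.00238). At 21 days 12 of 45 profiles rose, 10 of them 5S, and none fell, against 2.56% of named genes higher and 3.27% lower. At an unadjusted p under 0.05, 56 of the 79 genes were higher and 0 lower, but many of the 79 hold identical values. No share over all named genes is given at that threshold, so nothing is read from this. The adjusted count of 12 at 21 days was 0 without MEC1 mouse 1 and 1 without MEC1 mouse 2. It was 2 without mouse 2 and 1 without mouse 3 of the 21-day mice without MEC1, and 7 without mouse 3 of the 31-day mice without MEC1. At 31 days the count of 36 was 6 with the hybridisation controls of the arrays subtracted and 0 with these controls as a term of the fit. Some of these RNAs are near copies of the genes described above, so their values are not independent of them. A cluster could also pass the filter through MEC1 arrays alone, which favours counts of rises. The 5S genes n-R5s71 and n-R5s109, for example, lay below the array's median in all mice without MEC1. They averaged 3.39 and 3.47 in those of 31 days, where the array median averaged 3.81. The counts of rises are therefore given as a description.

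Transcripts of the proteins that bind or make these RNAs were mostly lower with MEC1 at 31 days, by about as much as other clusters of their intensity. In 7 lists of such genes, with 107 tested genes, limma called 65 lower and none higher at 31 days at an adjusted p under 0.05. At that threshold 29.0% of all named genes were lower and 21.5% higher. At an unadjusted p under 0.05, 77 of the 107 were lower and 0 higher, with no share over all named genes given. The median difference of the 107 was -0.91, against -0.10 over all named genes and -0.86 for clusters at the same intensity. Nothing particular to the lists is read from these values. The direction turned for at least 12 of the 22 named partner genes when the level of the arrays' hybridisation controls was a term of the fit. None of these 12 was called there, with limma adjusted p of 0.36 to 0.978. Since 92.1% of the variance of the controls lay between the 4 groups, that fit can barely separate them from the groups. No partner gene was called lower in it. With quantile normalisation 28 were called lower, and among the named genes Srp68, Srprb, Mepce, Ccnt1, Ccnt2, Lsm7, Zcrb1 and Rnpc3 no longer passed. At 21 days none of the 107 was called by limma in either direction, against 3.27% of all named genes lower and 2.56% higher. At an unadjusted p under 0.05, 15 of the 107 were lower and 1 higher, again with no share over all named genes given. Of these 107, 7 were called lower at 21 days without MEC1 mouse 3 of that day, 2 without MEC1 mouse 3 of 31 days, and 1 without mouse 1 of the 21-day mice without MEC1.

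**Figure D3:**
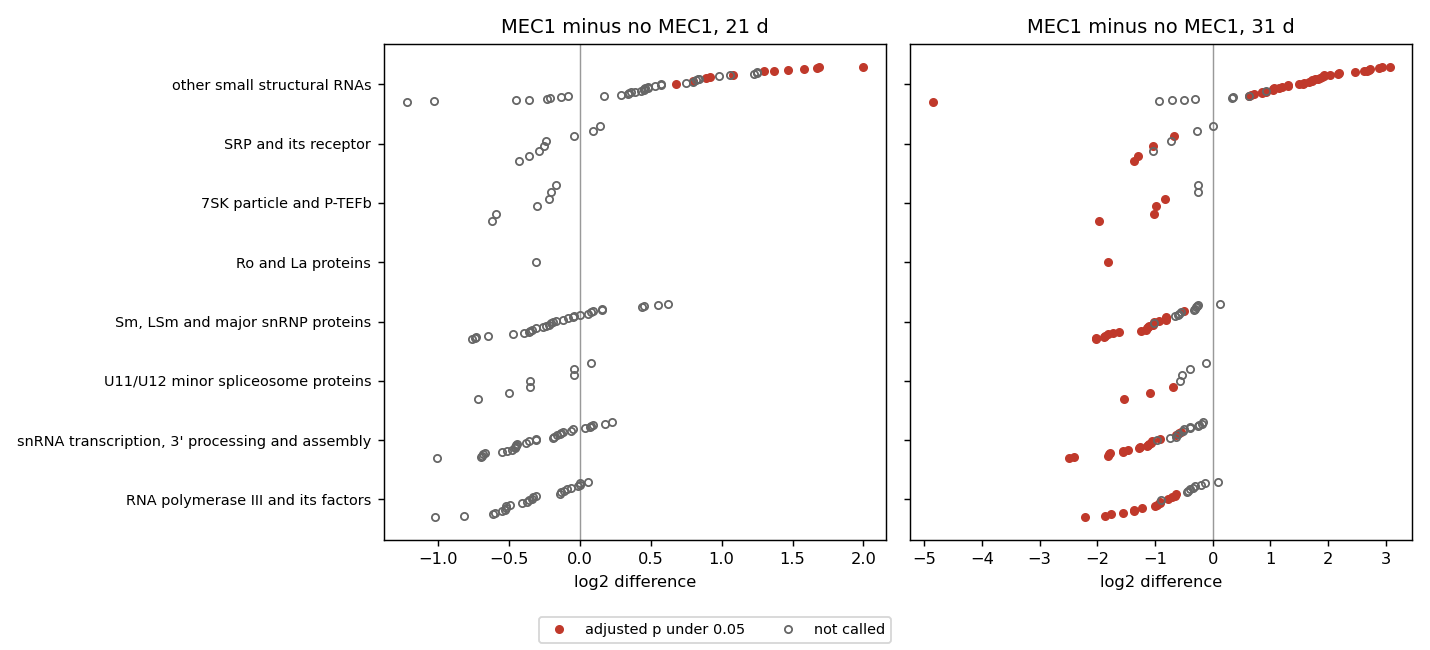
Log2 difference, MEC1 minus no MEC1, of each tested gene in the partner lists and of each distinct profile of the other small RNAs, at 21 days (left) and 31 days (right), with filled points for genes called by limma at an adjusted p under 0.05. At 31 days the protein lists lie mostly below 0 and most of the other small RNAs, chiefly 5S copies, above it, with Rn4.5s at -4.85. All points are of the main fit. With the hybridisation controls as a term of the fit, which is not drawn, at least 12 of 22 named partner genes turned to above 0 at 31 days. None of these 12 was called there, with limma adjusted p of 0.36 to 0.978.

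Of the signal recognition particle and its receptor, 4 of 8 tested genes fell at 31 days, against 29.0% of all named genes. The median difference of the list was -0.88, beside -1.04 for clusters at the same intensity. Srp68 and Srp72, whose products bind 7SL as a pair, averaged 8.72 ± 0.71 and 10.26 ± 0.79 with MEC1 and 10.02 ± 0.10 and 11.63 ± 0.10 without. Their differences were -1.29 (SE 0.33, adjusted p = 0.0115) and -1.37 (SE 0.34, adjusted p = 0.0103). Srprb, the membrane subunit of the receptor, differed by -1.03 (SE 0.23, adjusted p = 0.00596). With the hybridisation controls in the fit Srp68 and Srp72 stood at 1.25 and 1.30, neither called (limma adjusted p = 0.559 and 0.544). The 7SL difference in the same mice was 4.60 as deposited and 2.97 with these controls in the fit.

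Of the 7SK particle and P-TEFb, 4 of 6 tested genes fell at 31 days, against 29.0% of all named genes. The list had a median difference of -0.91, beside -0.98 for clusters at the same intensity. Larp7, which binds the 3' end of 7SK, read 10.99, 10.33 and 8.92 with MEC1 and 12.26, 11.84 and 12.04 without, a difference of -1.97 (SE 0.50, adjusted p = 0.0115). Mepce, which caps the 5' end of 7SK, differed by -1.02 (SE 0.24, adjusted p = 0.00816). The cyclins Ccnt1 and Ccnt2 of P-TEFb differed by -0.82 (SE 0.16, adjusted p = 0.00304) and -0.99 (SE 0.23, adjusted p = 0.0078). Hexim1 and Hexim2, which inhibit the kinase on the 7SK scaffold, did not pass, at -0.26 (SE 0.20) and -0.26 (SE 0.16). The La gene Ssb read 11.07, 10.42 and 8.90 with MEC1 and 12.03, 12.07 and 11.74 without, a difference of -1.82 (SE 0.50, adjusted p = 0.0156). Mouse 3 with MEC1 was the lowest for both Larp7 and Ssb, and MEC1 and no MEC1 mice did not overlap. With the hybridisation controls in the fit Larp7 and Ssb stood at 1.50 and 2.38, neither called (limma adjusted p = 0.726 and 0.36). Ro60 did not pass the filter on low values and was not tested.

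Of the Sm, LSm and other proteins of the major spliceosome, 19 of 30 fell at 31 days, against 29.0% of all named genes. The list had a median difference of -0.98, beside -0.90 for clusters at the same intensity. Snrpd3, a subunit of the Sm ring, differed by -2.03 (SE 0.69, adjusted p = 0.0351), Snrnp70, which binds U1, by -2.03 (SE 0.43, adjusted p = 0.00495), and Lsm7, of the ring on U6, by -1.88 (SE 0.52, adjusted p = 0.016). Snrpd3 was -1.20 and no longer called without MEC1 mouse 3, and it was also lost without any 1 of the mice without MEC1 of that day. Lsm7 was lost without MEC1 mouse 3 or without mouse 2 of the mice without MEC1. Of the minor spliceosome proteins 3 of 7 fell, and their list had a median difference of -0.56, beside -0.61 at the same intensity. Snrnp48, Zcrb1 and Rnpc3 had differences of -1.54 (SE 0.28), -1.09 (SE 0.32) and -0.68 (SE 0.15), with adjusted p of 0.00242, 0.0208 and 0.00528. Zcrb1 was lost without MEC1 mouse 3 or without mouse 2 of the mice without MEC1. All of these but Rnpc3 turned positive with the hybridisation controls in the fit, none of them called (limma adjusted p of 0.473 to 0.86).

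Of the genes for transcription, 3' processing and assembly of spliceosomal RNAs, 19 of 31 fell at 31 days, against 29.0% of all named genes. The list had a median difference of -0.96, beside -0.83 for clusters at the same intensity. The Integrator subunits Ints7 and Ints10, of the complex that cuts the 3' ends of these RNAs, averaged 8.45 ± 0.77 and 6.96 ± 0.29 with MEC1 and 10.94 ± 0.13 and 9.36 ± 0.34 without. Their differences were -2.49 (SE 0.35, adjusted p = 0.000753) and -2.40 (SE 0.38, adjusted p = 0.00124). The cap-binding gene Ncbp1 had a difference of -1.82 (SE 0.34, adjusted p = 0.00292). Of RNA polymerase III and its factors 15 of 24 fell, with a median difference of -0.83 for the list, beside -0.66 at the same intensity. The core subunit Polr3b had a difference of -1.76 (SE 0.30), and the TFIIIC subunits Gtf3c6 and Gtf3c2 had -2.22 (SE 0.43) and -1.86 (SE 0.39). Their adjusted p were 0.00189, 0.00334 and 0.00464. Ncbp1, Polr3b and Gtf3c2 turned positive with the hybridisation controls in the fit, and Ints7, Ints10 and Gtf3c6 did not. The turned values were not called, with limma adjusted p of 0.978, 0.966 and 0.719. For a change between the days limma called 0 of the 107 partner genes and 0 of the 79 other small RNA genes. At an unadjusted p under 0.05 it was 30 lower and 0 higher for the partners, and 1 lower and 26 higher for the small RNAs. Many of the small RNA genes hold identical values. No share over all named genes is given at that threshold, so nothing is read from these counts.

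Other measures of the arrays moved with MEC1 beside these RNAs. In either direction limma called 4.34% of all tested clusters at 21 days and 43.8% at 31 days. The spiked hybridisation controls averaged 11.92 ± 0.118 with MEC1 and 10.81 ± 0.0869 without at 21 days, and 12.57 ± 0.54 with MEC1 and 10.62 ± 0.128 without at 31 days (SD, n = 3 each), and their highest array was MEC1 mouse 3 of 31 days at 13.18. The poly-A spike controls averaged 7.74 ± 0.0872 with MEC1 and 7.10 ± 0.0816 without at 21 days, and 8.17 ± 0.419 with MEC1 and 7.09 ± 0.679 without at 31 days. The median of 30 mitochondrial clusters went the other way, at 8.34 ± 0.517 with MEC1 and 9.02 ± 0.176 without at 21 days, and 7.13 ± 0.892 with MEC1 and 8.93 ± 0.278 without at 31 days. Of the erythroid markers 8 of 12 were tested. Their mean level was 6.67 to 10.66 with MEC1 and 10.66 to 12.45 without at 21 days, and 4.98 to 5.87 with MEC1 and 11.85 to 12.45 without at 31 days, when all 8 fell. The samples without MEC1, and those with MEC1 at 21 days, thus held erythroid transcripts besides those of monocytes. Of the monocyte and macrophage markers 6 of 7 fell at 31 days, with mean levels of 10.36 to 12.25 with MEC1 and 13.01 to 13.02 without, and none was below the array's median in any group. Of 10 B cell markers, the cell type of MEC1, 7 were tested, and 2 rose at 21 days and 4 at 31 days, with mean levels of 4.71 to 5.18 with MEC1 and 4.06 to 4.14 without at 31 days. Beside all marker counts given here, limma called 2.56% of named genes higher and 3.27% lower at 21 days. At 31 days it called 21.5% higher and 29.0% lower. Pax5, the tested B cell marker with the largest difference, read 6.72, 6.65 and 7.21 with MEC1 and 4.70, 4.67 and 4.53 without at 31 days. Fcrla, Cd22 and Cd79b did not pass, with differences of 0.36, 0.15 and -0.18. Of the 9 B cell markers on the array, 3 lay below the array's median in the 31-day MEC1 mice and 4 in the mice without MEC1. Of 12 neutrophil markers 1 rose and 4 fell at 31 days, with mean levels of 11.66 to 13.78 with MEC1 and 13.62 to 14.00 without. None of them was below the array's median in any group. Of 10 T and natural killer cell markers 5 were tested and 4 rose, at low levels. Mean levels of the 10 were 4.29 to 4.41 with MEC1 and 3.76 to 3.88 without at 31 days. Below the array's median lay 5 of them in the MEC1 mice and 6 in the mice without MEC1. Markers of B, T and natural killer cells could pass the filter through MEC1 arrays alone. The part of human RNA, of erythroid cells, of RNA input or quality and of array brightness in the small RNA differences was not tested, and in bulk RNA fewer cells of a type and less RNA per cell cannot be told apart.

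The size of the differences depended on how the arrays were scaled. With the hybridisation controls subtracted, all tested clusters shifted to a median of -1.08 at 21 days and -1.91 at 31 days. The 9 profiles then had medians of 1.44 and 0.42, with 7 and 6 of 9 above 0. Relative to all clusters they were as far above as before, since the same amount is taken from each. The 7SL difference was 4.61 at 21 days and 2.64 at 31 days, Rnu2-10 turned to -0.64 at 31 days and Rnu12 to -0.89 at 21 days. With the controls as a term of the fit the medians were 1.44 and 1.71, 7SL stood at 4.80 and 2.97, and Rny3 turned to -1.72 at 31 days, but 92.1% of the variance of these controls lay between the 4 groups, so that this term and the groups can barely be separated. With quantile normalisation the medians were 2.68 and 2.89 and Rn7sk turned to 0.02 at 21 days. The 7SL, Rny1, Rnu6, Rnu1a1 and Rnu11 differences were positive at both days under each of these scalings.

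**Figure D4:**
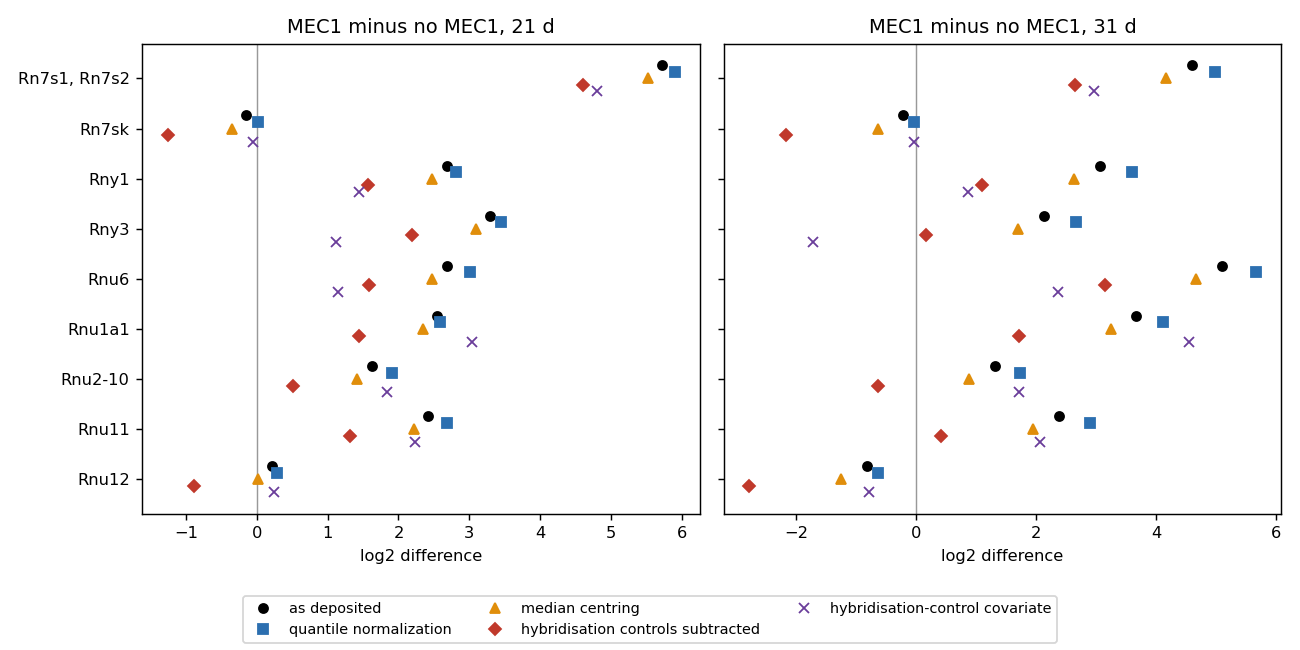
Log2 difference, MEC1 minus no MEC1, of the 9 profiles at 21 days (left) and 31 days (right) as deposited, with quantile normalisation, with median centring, with the hybridisation controls subtracted, and with these controls as a term of the fit. The 7SL points are all to the right of 0, while Rny3 at 31 days reaches -1.72, Rnu2-10 at 31 days -0.64, Rnu12 at 21 days -0.89 and Rn7sk at 21 days 0.02 under 1 scaling each.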

How the data were processed

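RNA of monocytes and macrophages from 12 mice was measured on 12 arrays. The authors deposited log2 intensities per transcript cluster, made with Affymetrix Expression Console and RMA, per the submitters' processing notes. Versions and genome build are not given in the sources used here, so no coordinates are printed. The table held 72688 features. Of these, 6732 controls were left out of the tests, and 65956 clusters remained (31258 with 1 symbol, 1492 with several, 33206 with none). Gene names came from the platform annotation, with 2066 older symbols updated through a RefSeq table (GRCm38.p6), which also held all 10 genes.

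Tests were run on the 37240 clusters, 19490 of them for named genes, whose value exceeded the array median on 3 or more arrays. The log2 values were modelled as 4 group means in limma 3.58.1 in R 4.3.3, with empirical Bayes moderation, two-sided p-values and Benjamini-Hochberg adjustment over all 37240 clusters at a threshold of 0.05. Groups followed the sample labels. The labels number separate mice, so the same number in 2 groups marks no shared animal, and of 18 same-numbered pairs 4 had a correlation of their deviations over 0.1 (range -0.358 to 0.415). The genes and gene lists were chosen with earlier results of these data known. Named from the lists were up to 3 largest rises and falls at 31 days among called genes without overlap, and all genes of lists of 7 or fewer. The share of false calls of this fit was not tested, so calls near 0.05 are to be read with caution. Alternatives were the filter, the scaling, the day's 6 arrays alone, the replicate number as a block, and leaving out each mouse. For arrays, their number limits the precision.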

Additional observations from a re-analysis of the deposited data

How the results depend on the processing

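The largest changes came from the hybridisation controls. Subtracting them moved the median difference of the 9 profiles to 1.44 at 21 days and 0.42 at 31 days, and the clusters called to 30399 and 35736. Partner genes called lower were then 97 and 107, and other small RNA profiles called higher 0 and 6. As a term of the fit they gave medians of 1.44 and 1.71, 4 and 7 clusters called, 0 partner genes lower at 31 days and 0 other small RNA profiles higher at either day. The main counts were 1615 and 16297 clusters, 0 and 65 partner genes and 12 and 36 profiles. Single differences that turned were Rnu12 at 21 days (-0.89) and Rnu2-10 at 31 days (-0.64) after subtraction, and Rn7sk at 21 days (0.02) with quantile normalisation. With the controls as a term, Rny3 (-1.72), Srp68 (1.25), Srp72 (1.30), Larp7 (1.50), Ssb (2.38), Snrpd3 (2.98), Snrnp70 (1.59), Lsm7 (1.03), Snrnp48 (0.59), Zcrb1 (0.77), Ncbp1 (0.13), Polr3b (0.16) and Gtf3c2 (1.06) turned at 31 days. The partner genes among these were not called in that fit, with limma adjusted p of 0.36 to 0.978. The cause of these turns was not tested. Quantile normalisation gave 1066 and 10646 clusters and 28 partner genes lower at 31 days, and median centring 1 partner gene lower at 21 days. With the 6 arrays of the day 454 clusters and 1 other small RNA profile were called at 21 days. A 70th percentile filter gave 10483 clusters at 31 days and no filter 30065. With the replicate number as a block, which does not pair these mice, 831 clusters were called at 21 days and 14484 at 31 days. Leaving out each mouse in turn gave 330 to 2883 clusters at 21 days and 10647 to 16847 at 31 days, medians of the 9 profiles of 2.20 to 3.00 and 2.00 to 3.25, 0 to 7 and 44 to 71 partner genes lower, and 0 to 16 and 32 to 37 other small RNA profiles higher. The fewest clusters came without MEC1 mouse 1 at 21 days and without mouse 2 of the 31-day mice without MEC1. Intensities near the arrays' ceiling limit what can be said of Rn7sk.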

Other observations

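Beyond the named small RNAs, genes that RefSeq classes as small nuclear RNA had higher median intensity differences than the classes set beside them. The class was looked at after the values above were known, and it is given as a description with no test. Of 908 such genes on the array 712 passed the filter on low values, with 640 distinct profiles. Their median log2 difference was 0.92 at 21 days and 1.65 at 31 days. All MEC1 mice lay above all mice without MEC1 for 62.2% of the profiles at 21 days and 83.9% at 31 days, against 14.9% and 31.2% of all tested clusters. The same shares were 11.8% and 49.2% for small nucleolar RNA, 18.8% and 51.5% for long noncoding RNA, and 10.5% and 19.5% for protein-coding genes. For small nucleolar RNA genes the median differences were 0.21 and 0.52, for long noncoding RNA genes 0.14 and 0.35, and for protein-coding genes -0.13 and -0.41. Counting profiles that differed by over 2-fold at 31 days, 450 of 640 small nuclear RNA profiles were higher and 5 lower. Of 12446 protein-coding profiles 231 were higher and 3128 lower. Of 612 small nucleolar RNA profiles 97 were higher and 41 lower, and of 1255 long noncoding RNA profiles 50 and 37. The same counts over all tested clusters are not given. The classes differ in intensity, with medians of 4.55 for small nuclear RNA and 6.57 for protein-coding genes in the 31-day mice without MEC1, and the part of intensity in this was not tested. A cluster could pass the filter through MEC1 arrays alone, which favours rises in a class of low intensity. Only the genes described above were left out of the class, so near copies of them may be in it. Nothing is therefore read from the shares or the counts.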
